A study of Zea mays with 6 samples.

Results

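The genes described are 10 members of the maize (Zea mays) flavonoid and anthocyanin pathway, taken by identifier from the 46430 genes counted in each library. They comprise 5 early biosynthetic steps (c2, whp1, chi1, fht1 and pr1), 3 late steps (a1, a2 and bz1) and 2 regulators (pac1 and c1). RNA came from the third leaf of seedlings on day 7 of drought, from the inbred line B73, labelled WT, and from the inbred line W9706. Each line had 3 libraries, and both lines were under drought. No watered libraries were analysed here, so the sole contrast was W9706 against B73. Nothing in the labels says if the libraries of a line are separate plants or repeat preparations, so the p-values cover the spread among these libraries alone, which may be technical.

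Flavonoid synthesis starts when chalcone synthase condenses a phenylpropanoid thioester with malonyl units. Chalcone isomerase and hydroxylases then give dihydroflavonols, the shared precursors of several flavonoid classes. The late enzymes turn these into coloured anthocyanins and attach glucose. In maize the pathway is known to be switched on by a complex of a MYB protein, a bHLH protein and a WD40 protein, best studied in the aleurone layer of the kernel. The names of the members came with the list of identifiers. The deposited counts carry identifiers alone, and a RefSeq gene table for the assembly Zm-B73-REFERENCE-NAM-5.0, from which no positions were taken, listed 0 of the 44146 nuclear identifiers. That table held the symbols of 9 of the 10 members, with pr1 missing and with a2 and pac1 each under 2 entries.

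Counts assigned to genes were 21084151 to 26631103 per library in B73 and 25054048 to 32088105 in W9706. Levels are given in CPM, the count scaled by the library total and edgeR's TMM factor. A count of 0 allows 0.0850 to 0.159 CPM depending on the library, taking 3 counts as the limit and counting error alone. Unmapped reads made up 12.7% to 13.8% of reads in B73 and 13.0% to 13.5% in W9706. Leaf markers could not be checked, since none of the marker symbols could be paired with an identifier of the files. In bulk leaf RNA, fewer cells of a type and less RNA per cell cannot be told apart.

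The members did not move as a block. Of the 10, 8 had enough counts to be tested, 1 was higher in W9706 (chi1), 2 were lower (c2 and c1) and 5 did not pass the test (edgeR quasi-likelihood test, Benjamini-Hochberg adjusted p under 0.05 over 22135 genes). Over all genes tested, 15.2% were higher and 19.0% lower, together 34.2%, so 3 of 8 was close to the background. The lines did not overlap in 3 of the 8, beside 50.6% of all genes tested. The 2 early members that passed differed in opposite directions, and 0 of 3 late members passed. The median log2 fold change was 0.61 over the 3 early members tested and 0.35 over the 3 late ones, beside 0.01 over all genes tested. Without single libraries the median of these 3 early members ran from 0.16 to 1.01. The late median ran from -0.23 to 1.48 and so took both signs. The early median leaves out pr1 also in those fits where pr1 entered the test, at log2 fold changes of -4.41 to -1.89. The sign of the early median with pr1 included was not computed. The early median is the value of fht1, which did not pass, or of chi1, while c2 lay on the other side of 0.

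**Figure D1:**
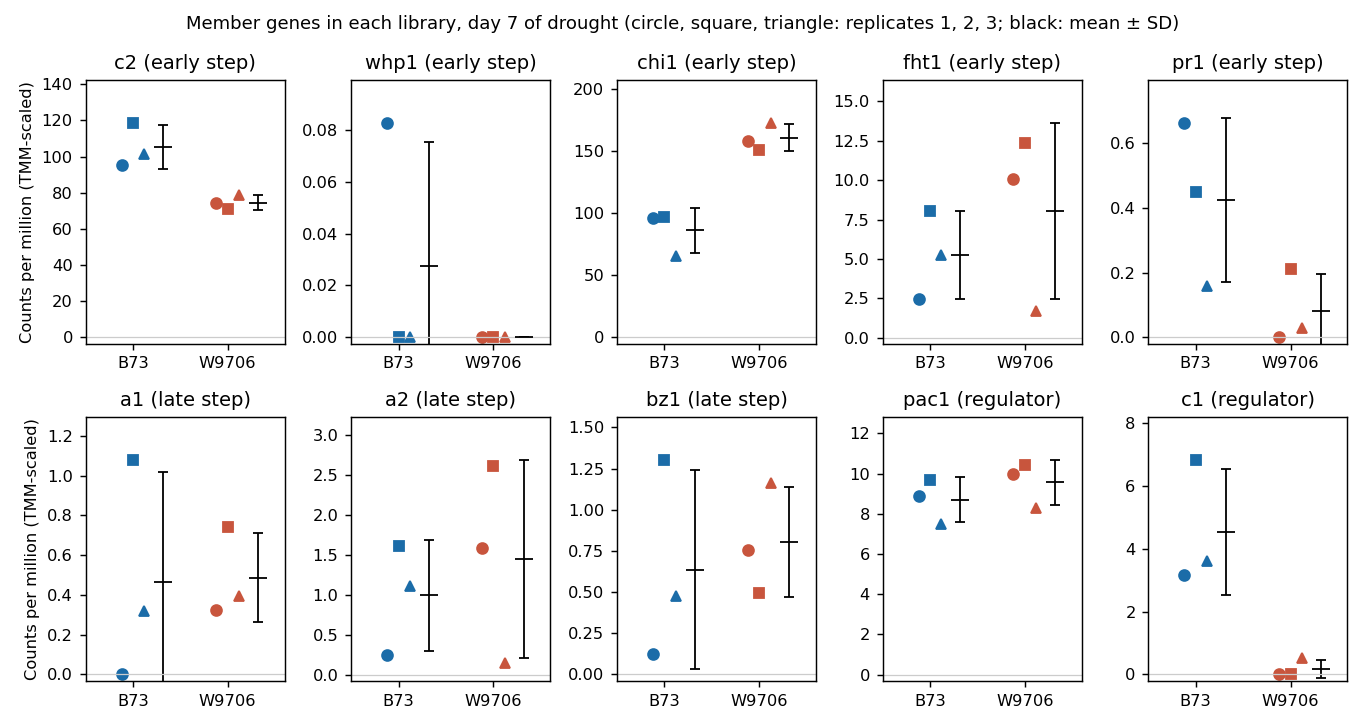
Abundance of the 10 members in CPM (counts scaled by library total and TMM factor, linear axes with a separate scale per gene) in each B73 (blue) and W9706 (red) library; circles, squares and triangles are replicates 1, 2 and 3, and the black marks give the mean and SD of 3 libraries, cut at the lower edge where the SD exceeds the mean. The lines separate for c2, chi1 and c1, and overlap for the other 7 members.

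c2 (Zm00001d052673) encodes chalcone synthase, the enzyme of the first committed step. It was measured at 95.6, 119 and 101 CPM in B73 replicates 1 to 3, from 2304, 2645 and 1908 counts. In W9706 it was at 74.0, 70.7 and 78.7 CPM, from 2060, 2001 and 2777 counts. All W9706 libraries lay below all B73 libraries, and the libraries of each line were close to each other. Mean levels were 105 ± 12.1 CPM for B73 and 74.5 ± 3.99 CPM for W9706 (SD, n = 3 each). W9706 was 1.41-fold lower, a log2 fold change of -0.50 ± 0.11 (SE) with a 95% interval of -0.75 to -0.25 and an edgeR adjusted p of 0.00901. The size of this change was moderate, as 38.7% of all tested genes differed more between the lines in either direction. Scaled by library size alone, c2 stood at -0.22 and did not pass (edgeR adjusted p of 0.140). That scaling moved the median of all genes from 0.01 to 0.29 on the log2 scale. Changing the scaling alone shifts all genes by about the same amount, so the distance of c2 from that median cannot test the call. With RLE scaling c2 stood at -0.50 (edgeR adjusted p of 0.00968) and with upper quartile scaling at -0.43 (edgeR adjusted p of 0.0156). DESeq2 gave -0.50 (adjusted p of 0.000984). The call of c2 thus held with each scaling run other than library size alone. The TMM factors were at most 0.922 among B73 libraries but at least 1.099 among those of W9706. Which scaling is nearer to the true levels was not tested.

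whp1 (Zm00001d007403) encodes the other known chalcone synthase of maize, named for its white pollen phenotype. It had 2 counts in B73 replicate 1 and 0 in the other 5 libraries. It was therefore not tested. Of the counts of both chalcone synthase genes together, c2 held 99.9% in B73 replicate 1 (lower bound of the exact Clopper-Pearson 95% interval 99.7%). It held all of them in the other 5 libraries, with lower bounds of 99.8% to 99.9%. These shares are not per transcript length. The genes are close in sequence, and reads that align equally well to both are not assigned to either in unique counts of this kind, so the zeros of whp1 are uncertain.

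chi1 (Zm00001d034635) encodes chalcone isomerase, which closes the ring of the chalcone to give a flavanone. It was at 96.0, 97.2 and 65.3 CPM in B73 replicates 1 to 3, from 2313, 2163 and 1230 counts. In W9706 it was at 158, 151 and 173 CPM, from 4403, 4280 and 6105 counts. The lines did not overlap, and B73 replicate 3 was the lowest of all libraries. Means were 86.2 ± 18.0 CPM for B73 and 161 ± 11.1 CPM for W9706 (SD, n = 3 each), a 1.87-fold higher level in W9706. The log2 fold change was 0.90 ± 0.16 (SE), with a 95% interval of 0.53 to 1.26 and an edgeR adjusted p of 0.00395. Of all tested genes, 19.3% differed more in either direction. chi1 passed under all 15 alternative settings run, with log2 fold changes of 0.74 to 1.18.

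Relative to c2, chi1 was also higher in W9706 in the counts within each library. This ratio needs no scaling between libraries and was chosen after the values were seen. It cannot tell a rise of chi1 from a fall of c2, so it does not show opposite shifts. Per count of c2, chi1 had 1.00, 0.818 and 0.645 counts in B73 replicates 1 to 3. In W9706 it had 2.14, 2.14 and 2.20. All B73 libraries lay below all W9706 libraries. Exact 95% intervals, which cover counting error only, spanned 2.03 to 2.30 over the W9706 libraries and were 0.947 to 1.06, 0.772 to 0.866 and 0.600 to 0.693 in B73 replicates 1 to 3.

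**Figure D2:**
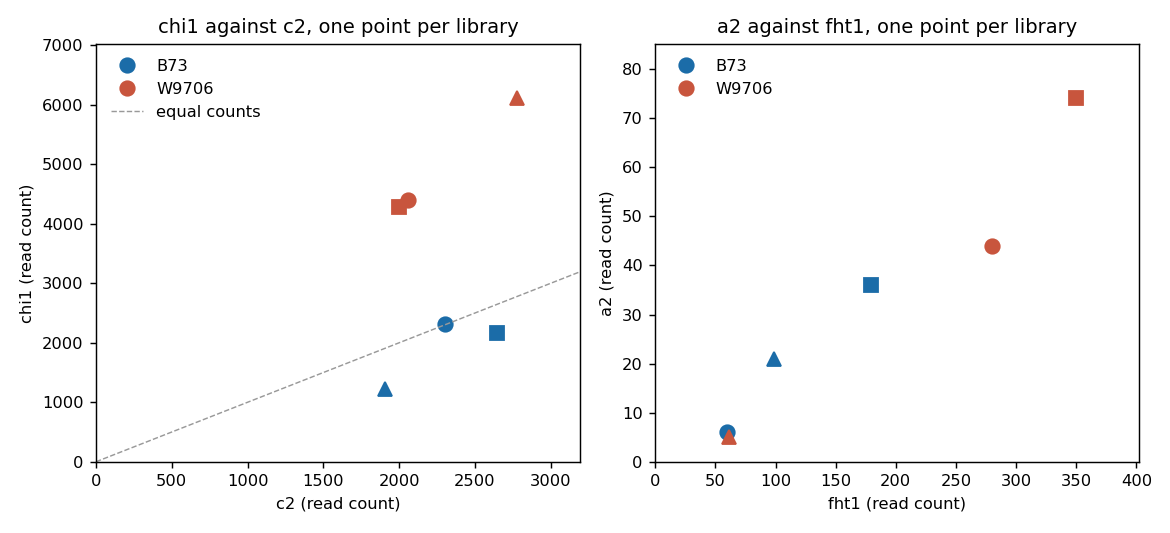
Read counts of chi1 against c2 (left) and of a2 against fht1 (right), one point per library, with linear axes from 0 and counts not corrected for depth; B73 is blue, W9706 is red, and circles, squares and triangles are replicates 1, 2 and 3. The W9706 libraries lie well above the line of equal counts on the left (2.14 to 2.20 chi1 counts per c2 count), and on the right W9706 replicate 3 lies beside B73 replicate 1.

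fht1 (Zm00001d001960) encodes flavanone 3-hydroxylase, which makes dihydroflavonols. It was at 2.49, 8.04 and 5.26 CPM in B73 replicates 1 to 3, from 60, 179 and 99 counts. In W9706 it was at 10.1, 12.4 and 1.73 CPM, from 280, 350 and 61 counts. W9706 replicates 1 and 2 were above every B73 library, and W9706 replicate 3 was below all of them. Its log2 fold change was 0.61 ± 0.72 (SE), with a 95% interval of -1.10 to 2.31 and an edgeR adjusted p of 0.549. The interval leaves room for a change of either sign. Without W9706 replicate 3 the log2 fold change was 1.10 and still did not pass (edgeR adjusted p of 0.104).

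pr1 (Zm00001d017077) encodes the flavonoid hydroxylase that decides between red and purple pigments. B73 replicates 1 to 3 had 16, 10 and 3 counts, and the W9706 replicates had 0, 6 and 1. The lines overlapped, as W9706 replicate 2 (0.212 CPM) was above B73 replicate 3 (0.159 CPM). The filter on low counts kept it out of the test. Without that filter its log2 fold change was -2.39 (edgeR adjusted p of 0.0994), and DESeq2 gave -2.43 (adjusted p of 0.110). Without W9706 replicate 2 it entered the test and passed, at -4.41 (edgeR adjusted p of 0.0348), from 1 count in the W9706 libraries left. The value of pr1 thus turned on that library.

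The late steps were measured from few counts and differed more among libraries of a line than between lines. a1 (Zm00001d044122) encodes dihydroflavonol reductase, the first late enzyme. Its counts were 0, 24 and 6 for B73 replicates 1 to 3 and 9, 21 and 14 for W9706, or 0, 1.08 and 0.319 CPM and 0.323, 0.742 and 0.397 CPM. B73 replicates 1 and 2 were the lowest and the highest of all 6 libraries. The log2 fold change was 0.06 ± 0.96 (SE), with a 95% interval of -2.19 to 2.32 and an edgeR adjusted p of 0.965.

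a2 (Zm00001d014914) encodes anthocyanidin synthase, the dioxygenase that forms the coloured anthocyanidin. Its counts were 6, 36 and 21 for B73 replicates 1 to 3 and 44, 74 and 5 for W9706, or 0.249, 1.62 and 1.12 CPM and 1.58, 2.61 and 0.142 CPM. W9706 held both the highest library, replicate 2, and the lowest, replicate 3. For a2 the estimate was 0.53 ± 0.97 on the log2 scale (SE), with a 95% interval of -1.77 to 2.83 and an edgeR adjusted p of 0.706.

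bz1 (Zm00001d045055) encodes the glucosyltransferase that stabilises the pigment with a sugar. Its counts were 3, 29 and 9 for B73 replicates 1 to 3 and 21, 14 and 41 for W9706, or 0.124, 1.30 and 0.478 CPM and 0.755, 0.495 and 1.16 CPM. The lines overlapped over most of their range, and here W9706 replicate 3 was the highest library of its line. For bz1 the estimate was 0.35 ± 0.71 on the log2 scale (SE), with a 95% interval of -1.28 to 1.99 and an edgeR adjusted p of 0.732.

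None of the 3 late members passed the edgeR test, and 0 of 3 had an unadjusted p under 0.05, beside 9958 of all 22135 genes tested. DESeq2 called 0 of the 3, beside 3511 genes higher and 4468 lower in W9706 of 25406 tested. The 95% intervals of the late members all hold a 2-fold difference in either direction, so the lines are not shown to be alike in these genes. Single libraries turned the sign of the estimates. a1 stood at -0.54 without B73 replicate 1, -0.13 without B73 replicate 3 and -0.35 without W9706 replicate 2. a2 stood at -0.23 without W9706 replicate 2, and bz1 at -0.15 without B73 replicate 1 and -0.02 without W9706 replicate 3. Without B73 replicate 2, a1 was at 1.72, a2 at 1.12 and bz1 at 1.48, none past the threshold.

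**Figure D3:**
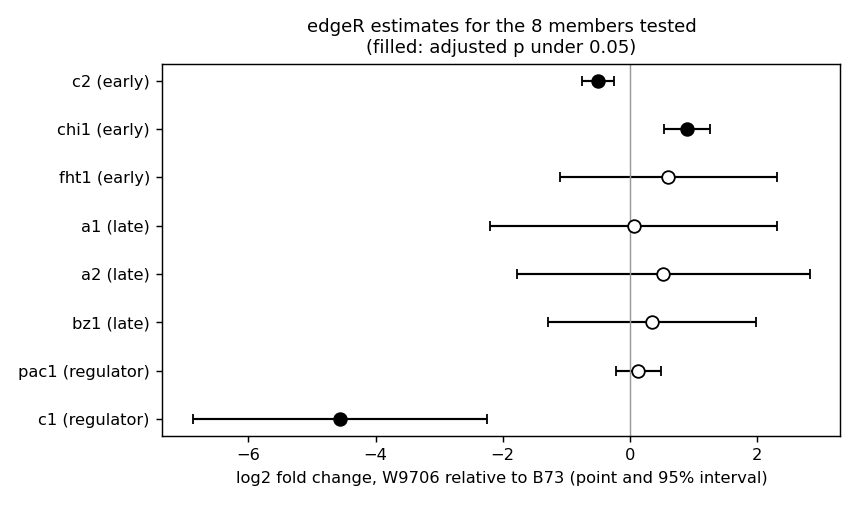
Log2 fold changes of the 8 members tested, W9706 relative to B73, with 95% intervals from the edgeR fit of 3 against 3 libraries; filled points have an adjusted p under 0.05. c2, chi1 and c1 lie clear of 0, pac1 is held within -0.22 to 0.49, and the intervals of fht1, a1, a2 and bz1 reach past a 2-fold change on both sides.

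Set against the early steps within each library, the late steps did not separate the lines either. Per 1000 counts of the 5 early members together, the 3 late members had 1.92, 17.8 and 11.1 counts in B73 replicates 1 to 3. In W9706 they had 11.0, 16.4 and 6.71. The W9706 values all lay inside the range of the B73 values. This ratio is of counts, not per transcript length, and was chosen after the values were seen. The early counts were mostly those of c2 and chi1, and chi1 was itself higher in W9706. The ratio therefore does not set the late steps against the early steps as a class.

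pac1 (Zm00001d017617) encodes the WD40 protein of the activating complex, known from pale aleurone mutants. It was at 8.88, 9.70 and 7.49 CPM in B73 replicates 1 to 3, from 214, 216 and 141 counts. In W9706 it was at 9.96, 10.4 and 8.30 CPM, from 277, 295 and 293 counts. The lines overlapped in a narrow range, and W9706 was the higher of each same-numbered pair. W9706 differed from B73 by 0.13 ± 0.15 on the log2 scale (SE; edgeR adjusted p of 0.535). With the replicate number as a block the estimate was 0.14 and did not pass either (edgeR adjusted p of 0.448). Its 95% interval of -0.22 to 0.49 was the narrowest among the 5 tested members that did not pass, and its upper end corresponds to a 1.40-fold higher level in W9706.

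c1 (Zm00001d044975) encodes the MYB protein that activates the pathway in the aleurone, and its relative pl1 is known for that part in vegetative tissue. In B73 c1 had 76, 152 and 68 counts in replicates 1 to 3, or 3.15, 6.83 and 3.61 CPM. In W9706 it had 0 counts in replicates 1 and 2, which allows up to 0.108 and 0.106 CPM, and 18 counts in replicate 3, or 0.510 CPM. Every W9706 library lay below every B73 library, and all W9706 counts came from a single library. How well W9706 reads align to the c1 gene model was not tested, so these are levels of assigned reads. Mean levels were 4.53 ± 2.00 CPM for B73 and 0.170 ± 0.294 CPM for W9706 (SD, n = 3 each).

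The log2 fold change of c1 was -4.56 ± 0.97 (SE), with a 95% interval of -6.87 to -2.24 and an edgeR adjusted p of 0.0122. Only 0.375% of all tested genes differed more between the lines in size. The interval corresponds to a level between 4.73-fold and 117-fold lower in W9706. Without W9706 replicate 3, c1 was at least 42.4-fold lower in W9706 than the B73 mean, taking 3 counts per library as the limit in the other 2. That bound covers counting error in W9706 only, not the spread of the B73 libraries (3.15 to 6.83 CPM) or any reads lost in alignment. Without B73 replicate 2 and W9706 replicate 1 together, c1 no longer passed (-3.60, edgeR adjusted p of 0.0611), nor did c2 (-0.38, edgeR adjusted p of 0.0766), while chi1 did (1.02, edgeR adjusted p of 0.0199). These were the libraries of each line most correlated with the other line, at a mean r of 0.934 and 0.933. Leaving them out leaves 2 libraries per line.

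Counts of the late genes can be set beside those of c1 library by library. The library with the most c1 counts, B73 replicate 2, also had the highest a1 and bz1 levels of all 6 libraries. W9706 replicates 1 and 2, with 0 counts of c1, had 9 and 21 counts of a1, 44 and 74 of a2, and 21 and 14 of bz1. B73 replicate 1, with 76 counts of c1, had 0, 6 and 3. In CPM, c1, a1, a2 and bz1 shared the order of the B73 libraries, with replicate 2 highest and replicate 1 lowest. The early members c2 and fht1 had the same order, so it was not particular to c1 and the late genes. W9706 replicate 3, where all W9706 counts of c1 lay, had the most bz1 (41 counts) and the least a2 (5 counts) of its line. Whether c1 and the late genes are linked in this tissue was not tested.

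The members also differed in how far libraries of a line lay apart. The biological coefficient of variation, edgeR's estimate of the spread between libraries beyond counting error, was 11.8% for c2, 15.4% for chi1 and 15.1% for pac1, near or below the median of 15.5% over all tested genes. It was 58.8% for fht1, 78.9% for a1, 79.6% for a2, 56.2% for bz1 and 96.8% for c1. At most 1.41% of all tested genes had a larger value than the lowest of these 5, that of bz1. Low depth went with a wide spread for a1, a2 and bz1, but fht1 (60 to 350 counts per library) and pac1 (141 to 295 counts) had similar counts and unlike spread.

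In B73 the libraries kept a similar order for the 8 tested members. B73 replicate 2 was the highest B73 library for 8 of 8 tested members, and B73 replicate 1 the lowest for 6 of 8, the exceptions being chi1 and pac1. The untested pr1 and whp1 ran otherwise, with their highest B73 value in replicate 1. In W9706 no library held such a place, with replicates 2 and 3 highest for 4 members each. Replicate 2 was highest for fht1, a1, a2 and pac1, and replicate 3 for c2, chi1, bz1 and c1. The share of all tested genes that follow the B73 order was not computed. That order may therefore not be particular to the members.

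Likeness among the tested members was measured by the root mean square difference of log2 CPM centred on each gene's mean over the 6 libraries. It was 0.36 for fht1 and a2. It was also 0.36 for c2 and pac1, but both of these varied little, and pac1 did not share the separation of the lines seen in c2. fht1 and a2 shared their low values in B73 replicate 1 and W9706 replicate 3 and their highest value in W9706 replicate 2. For every 1000 counts of fht1, a2 had between 82.0 and 212 counts. a1 and bz1 were nearest to each other at 0.68, and c1 was far from all, with c2 nearest at 2.38.

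**Figure D4:**
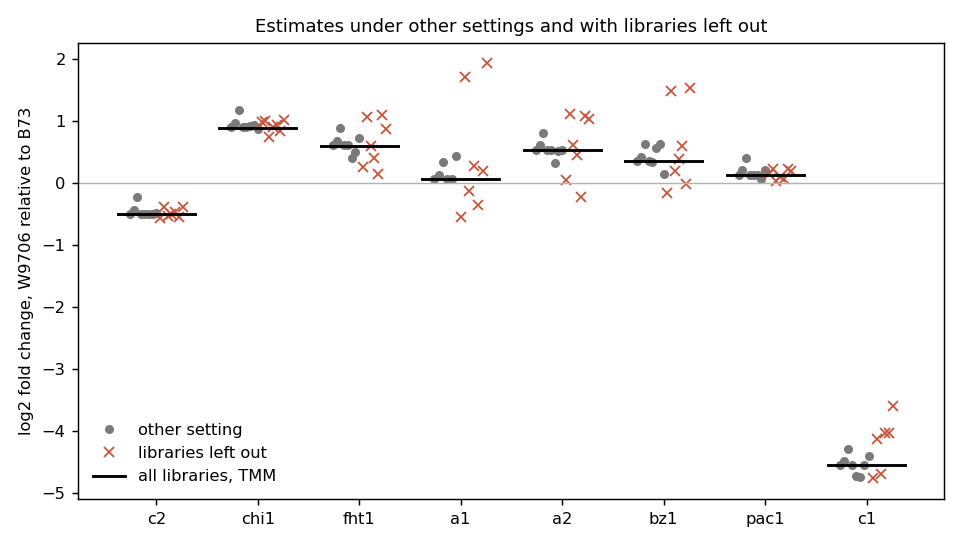
Log2 fold changes of the 8 tested members, W9706 relative to B73, with all libraries and TMM scaling (black lines), under other scalings, filters, tools, strand columns and the replicate block (grey circles) and with libraries left out (red crosses); the value of c1 without W9706 replicate 3 is not drawn, since both W9706 libraries left are at 0. chi1 stays above 0 and c2 and c1 below it throughout, whereas a1, a2 and bz1 fall on both sides when libraries are left out.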

How the data were processed

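The deposited counts are whole-number read counts per gene laid out as STAR writes them, and the submitters' processing notes name STAR. Version, genome build and annotation: not given in the sources used here. Positions and sequences are therefore left out. Whether reads of W9706 and of B73 align equally well to the gene models was not tested for any member. Per the labels' protocols, the NEBNext Ultra RNA kit was used, which does not mark strand, and the unstranded column was used. Summary lines stayed out of library sizes: reads in no gene were 3.68% to 4.33% of reads, ambiguous reads 1.06% to 1.16%, and multimapping reads were listed as 0, so counts of close paralogs are uncertain.

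All genes were fitted with edgeR 4.0.16 in R 4.3.3 (filterByExpr by line, TMM, robust quasi-likelihood F test, Benjamini-Hochberg adjusted p under 0.05); the SE is the log2 fold change divided by the square root of F. DESeq2 1.42.0, other scalings, no filter, single strand columns, a replicate block and fits without libraries were alternatives. Deviations of same-numbered libraries from their line means were weakly correlated (0.22, 0.11 and 0.13 for numbers 1, 2 and 3). Libraries with unlike numbers were not compared in this way, so a pairing by number is not established. The main fit did not use the numbers, and the replicate block was run as an alternative only. Libraries were checked for duplicates: the chi-square of counts per degree of freedom was at least 10.7 for every pair, so none was a copy of another. The check cannot tell repeat preparations from separate plants. Each library was counted as a sample in the fit.

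All 10 members are named. The members and the lists were chosen with earlier results of these data known. Of 20 other pathway genes and 10 tissue markers listed by symbol, 6 and 7 were in the RefSeq table, none with an identifier of the files, so they were not analysed here.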

Additional observations from a re-analysis of the deposited data

How the results depend on the processing

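Of 118 values of the 8 tested members under 15 alternatives, 109 kept their direction and their side of the threshold, 3 lost the call and 6 changed sign, all 6 among late members that did not pass. With the replicate block, which treats same-numbered libraries as pairs, 1 member was higher and 2 lower, as without it. There c1 stood at -4.75 (edgeR adjusted p of 0.0269), and the block changed no call. Library size alone left 1 member lower in W9706 in place of 2, and leaving out B73 replicate 2 and W9706 replicate 1 together left 0 (2 with an adjusted p of 0.0611 and 0.0766), with a late median of 1.54. That fit has fewer samples. Leaving out single libraries gave 2 to 3 lower members, with pr1 as the added one, and 1 higher member. Log2 fold changes were -0.54 to 1.72 for a1, -0.23 to 1.12 for a2 and -0.15 to 1.48 for bz1. The early median over c2, chi1 and fht1, without pr1, was 0.16 to 1.01, and the late median was -0.23 to 1.48. The changes of sign were a1 at -0.54, -0.13 and -0.35 without B73 replicate 1, B73 replicate 3 and W9706 replicate 2, a2 at -0.23 without W9706 replicate 2, and bz1 at -0.15 and -0.02 without B73 replicate 1 and W9706 replicate 3; the cause was not tested. a1 had no value in the single strand columns, where it failed the filter. Of 12 chi1 to c2 ratios from single strand columns, an alternative chosen after seeing the data, 1 left its counting interval (0.867 in B73 replicate 2). The late members were measured from 0 to 74 counts per library; the part of depth in their wide intervals was not tested.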

Other observations

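Over all 22135 tested genes, the profiles nearest to that of c2 across the 6 libraries were those of Zm00001d016382 and Zm00001d034884, at root mean square differences of 0.04 on the centred log2 CPM scale. Neither identifier is paired with a name in the files or the gene table. Many genes differ between the lines by a similar amount, and no member of the pathway came closer to c2 than pac1, at 0.36.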
